A study of Rattus norvegicus with 9 samples.

Results

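The proteasome genes of H9c2(2-1) cells, a myoblast line from embryonic rat heart, were followed at the mRNA level. They were taken as every protein-coding gene whose RefSeq symbol is Psm, a letter from a to g and a number, which gave 48 genes of the 36856 that had transcripts in the deposited tables. The rule used symbols and no measured value. It left out subunits that carry other symbols, such as Adrm1, Sem1 and Pomp, which are described separately here.

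RNA was sequenced from 9 libraries of wild-type cells in 3 groups of 3. The first group had been given energized structured water (ESW), the second control water (CW), and the untreated group (Control) had been kept in normal growth medium. Each water was present for 72 h at a dilution of 0.01, with fresh dilutions in new medium every 24 h, and no duration was given for Control. All groups are a single line. The labels do not say whether the 3 libraries of each group are separate cultures, so that a p-value reflects only how these samples vary, which can be a technical spread. The series' design compares ESW with Control and ESW with CW.

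The libraries held 26748673 to 48574618 estimated reads, of which 133636 to 257326 came from the 48 genes. Vim, an intermediate filament of mesenchymal cells and myoblasts, was at 2753 to 3164 TPM, a unit of level scaled for transcript length, in the 9 libraries. The muscle regulators Myod1 and Myog were low, at 7.65 to 11.4 TPM and 2.55 to 4.49 TPM. Among the 6 myoblast markers examined, 1 was under 1 TPM in every library. The 6 blood cell markers and the 4 endothelial markers examined were under 1 TPM in every library. Of 6 cardiomyocyte markers 4 were under 1 TPM in every library, whereas Tnnt2, a troponin, was at 58.9 to 74.7 TPM. Of 4 epithelial markers 3 were under 1 TPM throughout, and the keratin gene Krt8 was at 44.5 to 57.6 TPM.

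The proteasome degrades proteins that carry chains of ubiquitin. Its core particle is a barrel of stacked rings, in which the outer rings of alpha subunits form the gate and the inner rings of beta subunits hold the protease sites. The regulatory particle sits on the gate. Its base contains a ring of ATPases that unfold the substrate, and its lid contains the enzyme that removes the ubiquitin chain. Other activators can take the place of the regulatory particle, and dedicated chaperones assemble each part. In heart muscle cells this system removes damaged and misfolded proteins, and when proteasomes are inhibited the transcription factor encoded by Nfe2l1 raises their genes together.

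As a group, the genes of the core particle had the highest median level per length. The 14 constitutive core subunits had a median of 275 TPM over the 9 libraries, and the 17 subunits of the regulatory particle a median of 149.7 TPM. The 7 assembly chaperones had a median of 78.0 TPM, and the 4 activators with the inhibitor Psmf1 57.6 TPM. Within the core particle the levels ran from 156 TPM for Psma5 to 568 TPM for Psmb1, a 3.65-fold range among subunits that are built into the particle in equal number. Within the regulatory particle they ran from 79.9 TPM for Psmd11, a lid subunit that bridges lid and core, to 313 TPM for the ATPase Psmc3, a 3.92-fold range. Libraries of a group differed little. The 44 tested genes with a mean of at least 10 TPM had a median coefficient of variation of 3.63% in ESW, 3.43% in CW and 3.91% in Control.

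Genes with restricted expression lay far below these. Psmb8 and Psmb9, catalytic subunits that interferon induces in immunoproteasomes, were at 2.15 and 4.69 TPM, and the third inducible subunit Psmb10 at 37.2 TPM. Psma8, an alpha subunit known from testis, averaged 0.632 TPM. Psmb11, a beta subunit known from the thymic cortex, had 1, 0 and 2 reads in ESW, 2, 0 and 3 reads in CW and 0, 4 and 2 reads in Control. It was not tested, so that 47 of the 48 genes had tests.

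**Figure D1:**
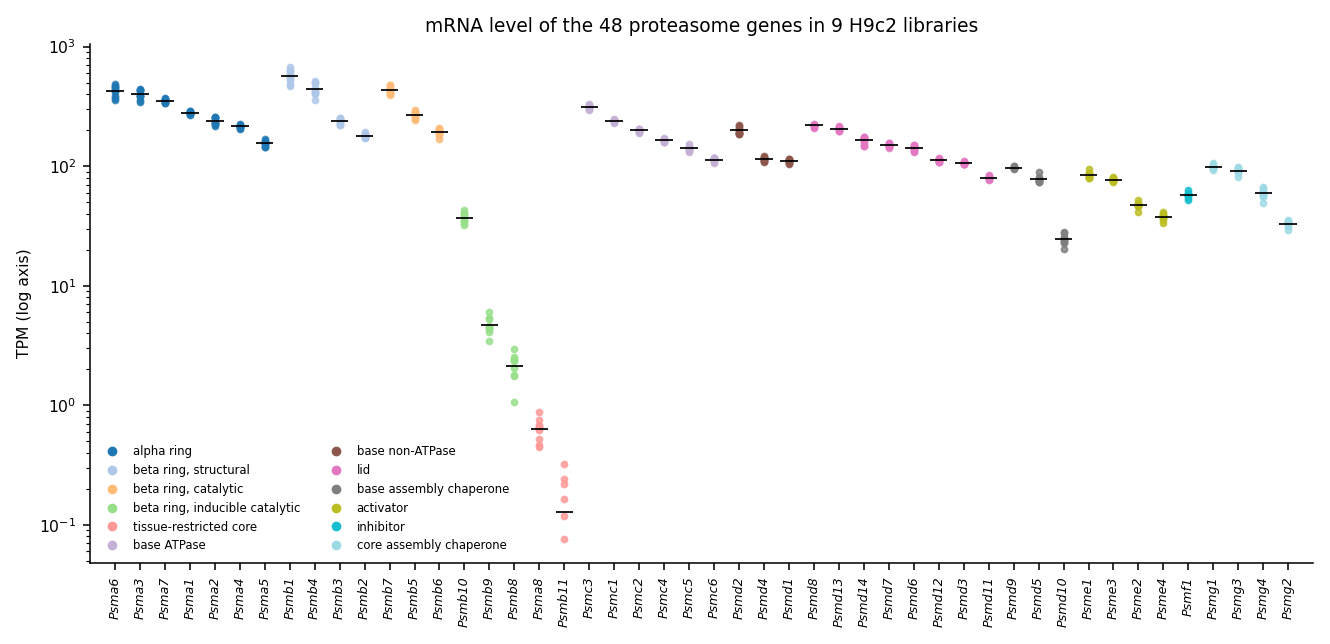
Level of each of the 48 proteasome genes in TPM on a log axis, with 1 point per library (n = 9) and a black bar at the mean, coloured by role and ordered within each role from high to low. The core subunits on the left sit above 100 TPM, Psmb8, Psmb9, Psma8 and Psmb11 sit below 10 TPM, and the 3 libraries with Psmb11 at 0 are not drawn.

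Of the 14 genes of the core particle 6 fell in ESW against Control by small amounts, 0 rose, and 8 did not pass the test. A gene is said to rise or fall where the adjusted p of edgeR's quasi-likelihood test, with Benjamini-Hochberg adjustment over all 14706 tested genes, was below 0.05. Over all 47 tested proteasome genes 9 changed, which is 19.1%, and over all tested genes 8.04% did. Of the 9, 8 fell and 1 rose, and over all tested genes 3.28% fell and 4.76% rose. The median log2 fold change of ESW against Control was -0.14 for the core particle, -0.06 for all 47 and -0.01 for all tested genes. In extracts of whole cultures, fewer cells of a type and less RNA per cell cannot be told apart.

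Of the cell type markers 3 passed a test. The 6 myoblast markers added up to 2995 to 3217 TPM in ESW, 2880.4 to 2966 TPM in CW and 2798 to 3062 TPM in Control, and ESW overlapped Control. Most of this sum was Vim. Vim rose in ESW against Control by 0.11 on the log2 scale (adjusted p = 0.0441), and Acta1, a skeletal muscle actin, rose in ESW against CW by 0.23 (adjusted p = 0.0468). The other myoblast markers did not go one way against Control. Des had all ESW libraries below all Control libraries (-0.34, adjusted p = 0.144). Myod1 (0.31, adjusted p = 0.0581) and Acta1 (0.20, adjusted p = 0.0695) had them all above. Myog (-0.17) and Mymk (-0.37) overlapped. Krt8 had 56.4, 56.5 and 53.2 CPM in ESW, 60.6, 64.6 and 61.1 CPM in CW and 49.2, 58.1 and 51.6 CPM in Control. It passed the single test over the 3 groups (adjusted p = 0.025), with ESW below CW without overlap. The part of these markers in the results was not tested.

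The alpha ring had 4 genes that fell among its 7. Psma6 had 148, 142 and 135 CPM in ESW (counts relative to the TMM-scaled library total), against 162, 179 and 188 CPM in Control. All ESW libraries were below all Control libraries, and the log2 fold change was -0.32 (SE 0.05, adjusted p = 0.00147). Psma3 had 156, 145 and 143 CPM in ESW and 159, 173 and 176 CPM in Control. Here the highest ESW library lay just under the lowest Control library, and Psma3 fell by 0.20 on the log2 scale (adjusted p = 0.0178). Psma2 had 76.2, 77.5 and 72.5 CPM in ESW, against 80.0, 88.8 and 88.3 CPM in Control, and fell by 0.18 on the log2 scale (adjusted p = 0.0309). Psma5, the least abundant core gene per length, had 62.3, 66.0 and 62.0 CPM in ESW and 69.9, 68.4 and 75.2 CPM in Control, and fell by 0.17 (adjusted p = 0.0286). The other alpha subunits Psma1, Psma4 and Psma7 had log2 fold changes of -0.05, -0.12 and -0.04 with adjusted p-values of 0.553, 0.0648 and 0.684.

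In the beta ring 2 of the 4 structural subunits fell. Psmb1, the most abundant of the 48 genes per length, had 172, 161 and 160.2 CPM in ESW, against 187, 204 and 232 CPM in Control. The log2 fold change was -0.34 (SE 0.06, adjusted p = 0.00254), the lowest among the 47 tested genes. Psmb4 had 144, 122 and 134 CPM in ESW, against 144, 154 and 181 CPM in Control, and fell by 0.26 (adjusted p = 0.0381). Its first ESW and first Control libraries were nearly equal. Psmb2, the lowest structural beta subunit, had 59.9, 53.1 and 57.1 CPM in ESW, 60.1, 55.3 and 55.7 CPM in CW and 55.7, 57.9 and 55.8 CPM in Control, and its groups overlapped (adjusted p = 0.96 against Control). Psmb3 had a log2 fold change of -0.09 (adjusted p = 0.352).

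The 3 constitutive catalytic subunits all had values below 0 on the log2 scale, and 0 of the 3 passed the test. Psmb7, which carries the trypsin-like site, had 167, 159 and 166 CPM in ESW, 165, 179 and 198 CPM in CW and 168, 186 and 196 CPM in Control (log2 fold change -0.16, adjusted p = 0.0889 against Control). Psmb5, which carries the chymotrypsin-like site, had 96.6, 81.3 and 85.4 CPM in ESW, 87.7, 102 and 96.7 CPM in CW and 89.04, 96.6 and 98.4 CPM in Control (-0.11, adjusted p = 0.286 against Control). Psmb6, which carries the caspase-like site, had 70.8, 57.2 and 62.2 CPM in ESW, 65.7, 71.3 and 69.4 CPM in CW and 62.4, 68.7 and 71.3 CPM in Control (-0.09, adjusted p = 0.418 against Control). For Psmb5 and Psmb6 the first ESW library was at the height of the highest Control libraries.

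The regulatory particle had 3 genes that changed among its 17, and they did not go one way. Psmd14, the lid enzyme that cuts ubiquitin chains from the substrate, had 110.3, 117 and 109 CPM in ESW, against 129, 129 and 133 CPM in Control. It fell by 0.21 (SE 0.04, adjusted p = 0.00331), with no overlap of the groups. Psmd6, a structural lid subunit, had 91.5, 87.3 and 87.1 CPM in ESW, against 94.3, 101 and 102 CPM in Control, and fell by 0.16 (adjusted p = 0.0301). Psmd2, the scaffold of the base to which shuttle receptors dock, went the other way. It had 398, 404 and 401 CPM in ESW and 371, 353 and 355 CPM in Control, and rose by 0.16 (SE 0.04, adjusted p = 0.0101).

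The other 14 regulatory subunits did not pass the test. The median log2 fold change of the 17 was -0.04, and 0 of the 6 ATPases passed the test. Psmc3, the highest ATPase, had 309.7, 295 and 291 CPM in ESW, 315, 325 and 315 CPM in CW and 304, 318 and 328 CPM in Control (-0.08, adjusted p = 0.21 against Control). Psmc6, the lowest ATPase, had 105, 104 and 99.1 CPM in ESW, 98.7, 102 and 108 CPM in CW and 109, 110.2 and 103 CPM in Control (-0.06, adjusted p = 0.432 against Control). For both ATPases ESW overlapped Control, and for Psmc3 the ESW libraries lay below the CW libraries. Psmd1, the other large scaffold of the base, had 215, 219 and 217 CPM in ESW, 215, 205 and 205 CPM in CW and 219, 211 and 209 CPM in Control (0.03, adjusted p = 0.709 against Control). In the lid, Psmd8 had 171, 168 and 168 CPM in ESW, 172, 172 and 176 CPM in CW and 173, 173 and 175 CPM in Control (-0.04, adjusted p = 0.499 against Control). Psmd11 had 100.1, 99.7 and 99.6 CPM in ESW, 96.5, 94.9 and 94.01 CPM in CW and 94.4, 97.3 and 94.1 CPM in Control (0.07, adjusted p = 0.296 against Control). The ESW libraries of these lid genes did not overlap those of Control or CW, although neither gene passed the test. Over the 47 genes 15 had all ESW libraries below all Control libraries, against 12.4% of all tested genes, and 5 had them all above, against 13.3%.

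Of the 7 assembly chaperones and of the 5 activators with their inhibitor, 0 passed the test in ESW against Control. Psmf1, which encodes an inhibitor of the core particle, had 40.9, 39.2 and 42.6 CPM in ESW, 39.2, 39.8 and 39.1 CPM in CW and 38.3, 37.2 and 36.5 CPM in Control (log2 fold change 0.13, adjusted p = 0.109 against Control). Psme1, a subunit of the interferon-induced activator ring, had 38.4, 41.1 and 38.2 CPM in ESW, 41.8, 46.9 and 43.9 CPM in CW and 41.1, 44.7 and 45.8 CPM in Control (-0.16, adjusted p = 0.0874 against Control). Psme4, a large single-chain activator, had 131, 122 and 128 CPM in ESW and 119, 136 and 134 CPM in Control (-0.03, adjusted p = 0.735). ESW did not overlap Control for Psmf1 and overlapped it for Psme1 and Psme4. Psmg1, which with Psmg2 forms the pair of chaperones that starts the alpha ring, had 42.5, 43.7 and 42.8 CPM in ESW, 40.8, 40.5 and 43.7 CPM in CW and 40.1, 40.8 and 40.0 CPM in Control (0.09, adjusted p = 0.245 against Control). Psmg2 had 13.6, 13.1 and 13.0 CPM in ESW, 13.6, 12.6 and 12.7 CPM in CW and 13.5, 12.8 and 11.8 CPM in Control (0.06, adjusted p = 0.685 against Control). The ESW libraries of Psmg1 were all above its Control libraries, and those of Psmg2 overlapped its Control libraries. Psmd9, the base chaperone with the highest level per length, had 53.1, 46.8 and 48.1 CPM in ESW, 48.7, 51.8 and 49.8 CPM in CW and 47.5, 49.0 and 50.03 CPM in Control (0.01, adjusted p = 0.923 against Control). Psmd10, the lowest base chaperone, had 13.2, 13.5 and 11.4 CPM in ESW, 13.7, 15.5 and 15.9 CPM in CW and 13.2, 14.2 and 14.8 CPM in Control (-0.15, adjusted p = 0.302 against Control). For Psmd9 and Psmd10 ESW overlapped Control.

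The number of proteasome genes called in ESW against Control depended on single libraries. Without ESW replicate 3 it was 3, without ESW replicate 2 it was 5, and without Control replicate 2 or Control replicate 3 it was 4 each. With 1 library left out the highest count was 12. Calls over all tested genes fell too, from 1183 to 397 without ESW replicate 3 and to 818 without ESW replicate 2. They were 534 without Control replicate 2 and 590 without Control replicate 3. Psma6 and Psmd14 passed the test under every one of the 18 alternatives examined, and each of the other 7 lost its call under at least 1.

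**Figure D2:**
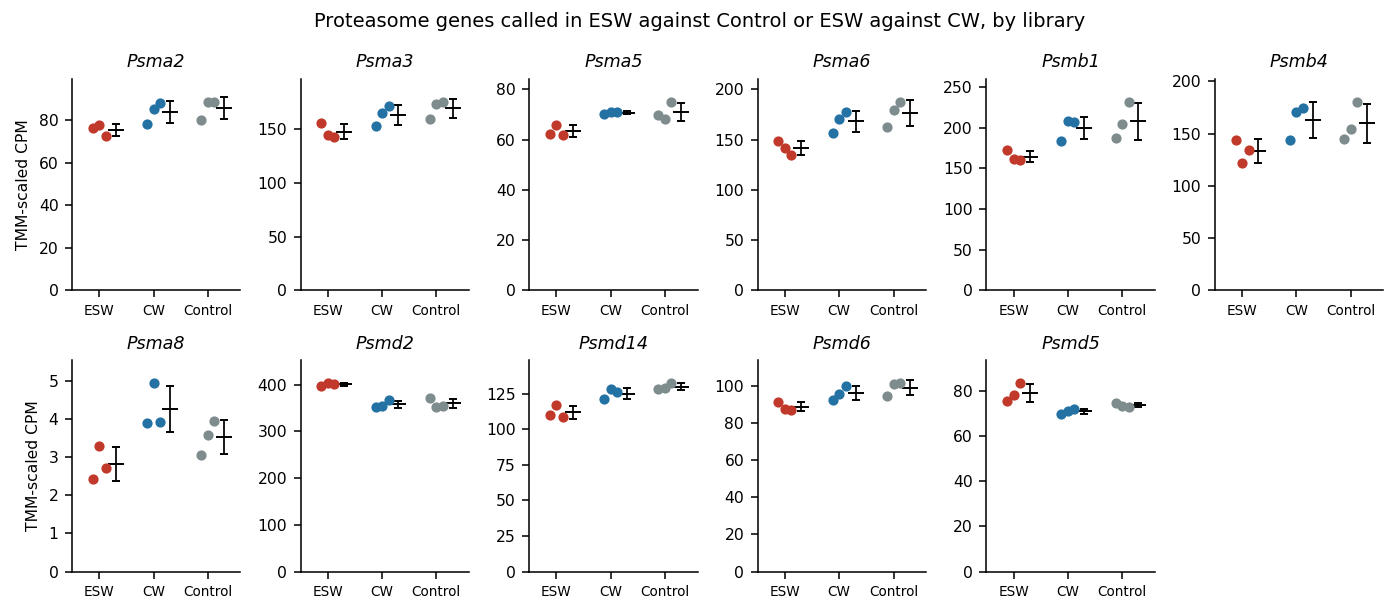
TMM-scaled CPM of the 11 proteasome genes called in ESW against Control or in ESW against CW, with 1 point per library (replicates 1 to 3 from left) and the mean ± SD of 3 libraries beside them. ESW libraries lie below both other groups for Psma2, Psma5, Psma6, Psmb1, Psmd6 and Psmd14 and above them for Psmd2 and Psmd5. For Psmb4 the first library of each group lies at 144 CPM.

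Of the 14 core genes 4 fell in ESW against CW, and 0 rose. ESW against CW and ESW against Control share the ESW libraries, so that their values are not independent. In ESW against CW 8 of the 47 proteasome genes changed, 17.0% against 8.14% of all tested genes. Of these 6 fell and 2 rose, and over all tested genes 3.99% fell and 4.15% rose. The core particle had a median log2 fold change of -0.14, and the regulatory particle had 1 that fell and 1 that rose among 17, with a median of -0.01. The median was -0.05 for the 47 and -0.0018 for all tested genes.

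Psma6, at 135 to 148 CPM in ESW, had 157, 170.5 and 178 CPM in CW, and fell by 0.25 in ESW against CW (SE 0.05, adjusted p = 0.00864). Psmb1, at 160.2 to 172 CPM in ESW, had 184, 208 and 206 CPM in CW and fell by 0.28 in ESW (SE 0.06, adjusted p = 0.00998). Psma5, at 62.0 to 66.0 CPM in ESW, had 70.1, 71.0 and 71.1 CPM in CW and fell by 0.16 in ESW (adjusted p = 0.0412). For these 3 genes every CW library was above every ESW library. Psmb4, at 122 to 144 CPM in ESW, had 144, 171 and 174 CPM in CW, and although it passed the test (-0.29, adjusted p = 0.0239) its lowest CW library lay just under its highest ESW library. Psma2, at 72.5 to 77.5 CPM in ESW and with 78.0, 85.2 and 88.1 CPM in CW, had a log2 fold change of -0.15 and did not pass (adjusted p = 0.0725). Psma3, at 143 to 156 CPM in ESW and with 153, 165 and 172 CPM in CW, did not pass either (-0.15, adjusted p = 0.075).

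Among the regulatory subunits Psmd14, at 109 to 117 CPM in ESW, had 121, 128 and 126 CPM in CW and fell by 0.16 in ESW against CW (SE 0.04, adjusted p = 0.0217). Psmd2, at 398 to 404 CPM in ESW, had 353, 355 and 367 CPM in CW and rose by 0.16 in ESW (SE 0.04, adjusted p = 0.00969). Both genes had groups that did not overlap. Psmd6, at 87.1 to 91.5 CPM in ESW and with 92.5, 95.3 and 99.9 CPM in CW, did not pass (-0.11, adjusted p = 0.114). The base chaperone Psmd5 had 75.5, 78.4 and 83.7 CPM in ESW and 70.1, 71.1 and 72.1 CPM in CW, and rose by 0.16 (adjusted p = 0.0346). In Control it had 74.9, 73.6 and 73.1 CPM, and ESW against Control did not pass for it (0.10, adjusted p = 0.168).

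Psma8 fell in ESW against CW by 0.60 on the log2 scale (SE 0.16, adjusted p = 0.0273), at a low level in both groups. It had 2.42, 3.30 and 2.71 CPM in ESW and 3.89, 4.94 and 3.92 CPM in CW. Its Control libraries, at 3.06, 3.58 and 3.94 CPM, overlapped ESW (-0.32, adjusted p = 0.235). Of the reads given to Psma8, 96.9% lay on a non-coding transcript of 12453 bases, and few lay on its coding transcript.

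Single libraries weighed on this comparison too. Without ESW replicate 3 the count of proteasome genes called in ESW against CW was 0, without CW replicate 2 or CW replicate 3 it was 1 each, without ESW replicate 2 it was 4, and without Control replicate 1 it was 13. Calls over all tested genes went from 1197 to 314 without ESW replicate 3. They were 407 without CW replicate 2, 474 without CW replicate 3, 571 without ESW replicate 2 and 1486 without Control replicate 1. Each of the 8 proteasome genes lost its call under at least 1 of the alternatives. Over the 47 genes 14 had all ESW libraries below all CW libraries, against 13.4% of all tested genes, and 4 had them all above, against 14.9%. In either direction the groups did not overlap in 28.3% of all tested genes.

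**Figure D3:**
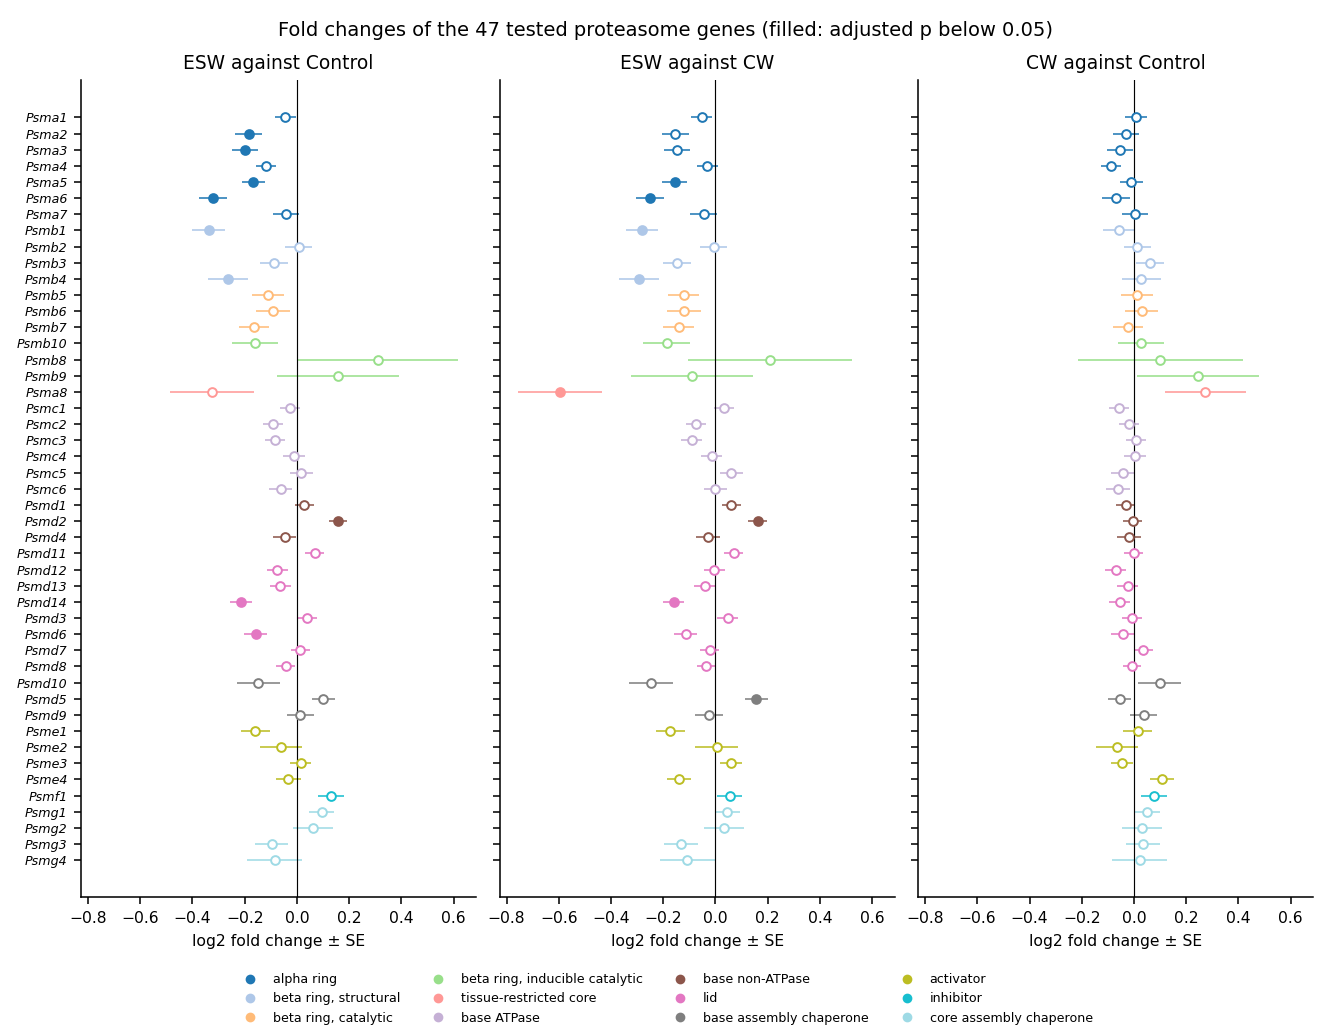
Log2 fold change ± SE of the 47 tested proteasome genes in 3 panels (ESW against Control, ESW against CW, and, at the right, CW against Control), on a shared axis and coloured by role, with filled points where the adjusted p was below 0.05. The alpha and beta subunits at the top lie mostly left of 0 in both ESW panels, Psmd2 lies right of 0 in both, and no point is filled in CW against Control.

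No proteasome gene passed the test between CW and Control. In CW against Control 0 of the 47 genes changed in edgeR's quasi-likelihood test, against 0.177% of all tested genes (0.0272% higher and 0.15% lower), and 2 had an unadjusted p below 0.05, against 9.87% of all tested genes. DESeq2 also called 0. The median log2 fold change was -0.0020 for the 47, -0.0028 for the core particle and -0.00041 for all tested genes. Psme4 had 138, 140.4 and 141 CPM in CW and 119, 136 and 134 CPM in Control, which did not pass (0.11, adjusted p = 0.458). Psma4 had 104, 107 and 109 CPM in CW and 114, 117 and 111 CPM in Control (-0.09, adjusted p = 0.458). Neither gene's libraries overlapped between CW and Control. Over the 47 genes 2 had all CW libraries above all Control libraries, against 7.13% of all tested genes, and 5 had them all below, against 7.56%. In the single test over the 3 groups 8 of the 47 genes passed, 17.0% against 9.58% of all tested genes. They were Psma2, Psma3, Psma5, Psma6, Psmb1, Psmb4, Psmd2 and Psmd14.

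Summed over the subunits, levels of the core particle were lower in ESW and levels of the regulatory particle overlapped between groups. The 14 core genes added up to 4243, 3925 and 4064 TPM in ESW, to 4285, 4681 and 4669 TPM in CW, and to 4309, 4590 and 4781 TPM in Control. All 3 ESW sums were below all CW and Control sums, with the first CW and first Control libraries closest to the first ESW library. The 17 regulatory genes added up to 2753, 2785 and 2739 TPM in ESW, to 2766, 2823 and 2749 TPM in CW, and to 2781, 2802 and 2777 TPM in Control, with the groups overlapping. The mean level of a core gene was 1.79 ± 0.08 times that of a regulatory gene in ESW, 1.99 ± 0.09 times in CW and 1.99 ± 0.10 times in Control (SD, n = 3 each).

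The lower core levels in ESW were not spread evenly over its libraries. Taken by TPM, 10 of the 14 core genes had their lowest value in ESW replicate 2 and the other 4 in ESW replicate 3. The median deviation of the core genes from their mean log2 CPM was -0.04, -0.14 and -0.11 in the ESW libraries, -0.05, 0.06 and 0.10 in the CW libraries and -0.03, 0.06 and 0.11 in the Control libraries. The first library of each group thus lay at a similar height. The median deviation of the regulatory genes stayed within 0.041 of 0 in every library.

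Transcript length moved with these values. Effective length is the transcript length as Salmon adjusts it, on which TPM also rests. It was above the nominal length for 17672 to 24491 transcripts per library, so that it holds more than a correction for fragment size, and the bias options used are not given in the sources used here. The median effective length was 610 bases for the core genes, 1440 bases for the regulatory genes and 2570 bases for all tested genes. The 1832 protein-coding genes with an effective length under 1000 bases had a median log2 fold change of -0.06 in ESW against Control, with 160 that fell and 44 that rose. In ESW against CW their median was -0.04, with 112 that fell and 27 that rose. Protein-coding genes of at least 2500 bases had medians of 0.01 and 0.03. Among the called regulatory genes, Psmd2, which rose, had a mean effective length of 3109 bases, and Psmd14 and Psmd6, which fell, had 1238 and 1101 bases. Of the 1690 protein-coding genes of 1000 to 1500 bases, 81 fell and 75 rose in ESW against Control (median -0.013). In ESW against CW 52 of these 1690 genes fell and 70 rose (median -0.0057). By library the median deviation of the short genes was 0.01, -0.04 and -0.05 in ESW, -0.02, 0.02 and 0.04 in CW and -0.02, 0.05 and 0.05 in Control, so that ESW replicates 2 and 3 were the lowest in both sets. The part of length in the core result was not tested. An offset of each gene's average transcript length takes up changes of it between libraries and not differences between genes, so that it cannot test this. With that offset the core median was -0.14 in both ESW comparisons, and the count of proteasome genes called was 4 in ESW against Control and 4 in ESW against CW. With limma on log2(TPM + 1) these counts were 3 and 0.

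**Figure D4:**
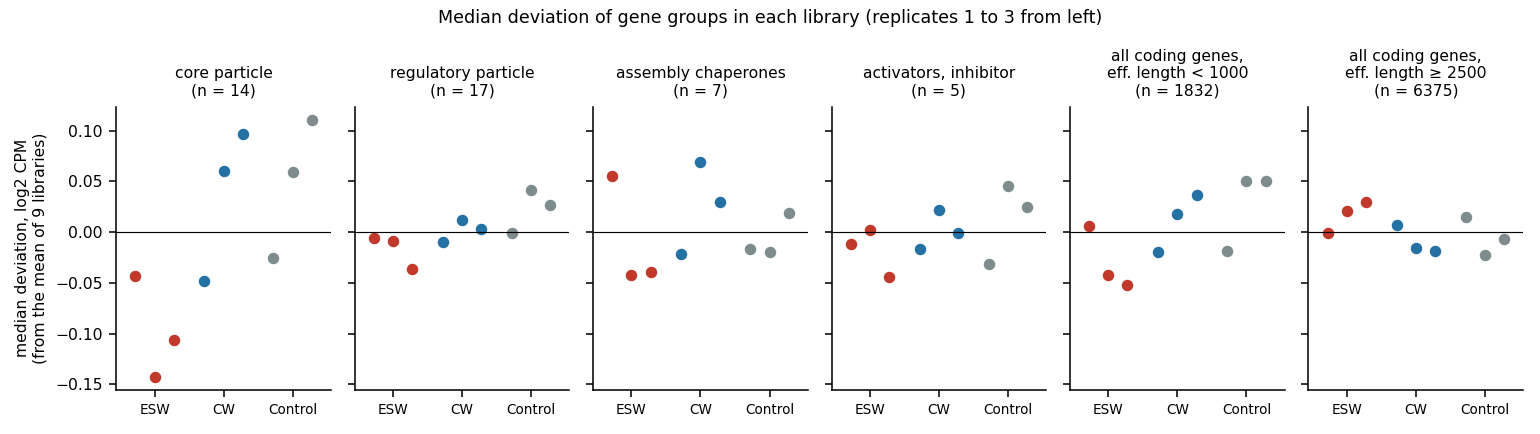
Median deviation of log2 CPM from the mean of the 9 libraries for 4 groups of proteasome genes and for short and long protein-coding genes, with 1 point per library and n genes per panel. The core particle spans -0.14 in ESW replicate 2 to 0.11 in Control replicate 3, the regulatory particle stays within 0.041 of 0, and the short coding genes are lowest in ESW replicates 2 and 3 over a smaller range.

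The inducible catalytic subunits, which replace the constitutive ones, did not pass a test. Psmb8, which replaces Psmb5, had 1.38, 1.04 and 1.23 CPM in ESW, 0.556, 1.53 and 0.994 CPM in CW, and 1.17, 0.895 and 0.877 CPM in Control. Psmb9, which replaces Psmb6, had 2.11, 1.47 and 1.66 CPM in ESW, 1.56, 2.25 and 1.70 CPM in CW, and 1.504, 1.93 and 1.28 CPM in Control. Psmb10, which replaces Psmb7, had 14.9, 14.3 and 14.9 CPM in ESW, 16.3, 17.5 and 16.3 CPM in CW, and 13.7, 17.1 and 18.4 CPM in Control. Of these 3 genes 0 passed in any of the 3 comparisons, and for Psmb8 and Psmb9 all groups overlapped. For Psmb10 the ESW libraries lay below the CW libraries (-0.19, adjusted p = 0.207).

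By level, the inducible subunits made up a small share of each pair. Psmb8 was 0.955 ± 0.014% of the summed TPM of Psmb8 and Psmb5 in ESW, 0.712 ± 0.292% in CW and 0.706 ± 0.148% in Control (SD, n = 3 each). The ESW shares of Psmb8, from 0.942% to 0.969%, lay above its highest Control share of 0.877% and within the CW range. These shares rest on few reads. The main Psmb8 transcript had 37.2 to 49.4 reads per library in ESW and 31.4 to 43.9 in Control. Psmb8 itself did not pass against Control (log2 fold change 0.31, SE 0.31, adjusted p = 0.601). By CPM, ESW and Control did not overlap in 25.6% of all tested genes. Psmb9 was 2.47 ± 0.13% of its pair in ESW, 2.43 ± 0.33% in CW and 2.19 ± 0.46% in Control. Psmb10 was 7.73 ± 0.35% of its pair in ESW, 7.98 ± 0.60% in CW and 7.96 ± 0.54% in Control. For both of these pairs the groups overlapped. Of 6 genes of interferon response and antigen processing 5 were tested, Tap1, Tap2, Tapbp, B2m and Irf1, and 0 of them passed in any of the 3 comparisons.

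Promoter sequences were available in the RefSeq table of the assembly GRCr8 for 43 of the 48 genes, and Psma7, Psmb11, Psmd12, Psmd14 and Psmd6 were not in it. The 250 bases before the start were searched on both strands for 4 motifs. The first was the core of the antioxidant response element, TGACNNNGC, which factors of the Nfe2l1 and Nfe2l2 family bind. The second was the box CCAAT, the third an ETS core with the letters CCGGAAG, which ETS factors bind, and the last the TATA box, here TATAAA. The windows of Psma6 and Psmb1, whose fold changes were the lowest of the genes called in ESW against Control, of Psma3, the only called gene in the table with an antioxidant response element core, and of Psmd2, which rose, are shown 5′ to 3′. Capitals mark matches to the first 3 motifs on either strand.
Psma6, chr6:78514097-78514346, plus strand: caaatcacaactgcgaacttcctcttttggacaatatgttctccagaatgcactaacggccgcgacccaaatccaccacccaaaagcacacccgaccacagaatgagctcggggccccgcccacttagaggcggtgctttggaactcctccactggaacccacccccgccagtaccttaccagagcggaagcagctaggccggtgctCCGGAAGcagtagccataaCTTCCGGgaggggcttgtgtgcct
Psmb1, chr1:65134771-65135020, minus strand: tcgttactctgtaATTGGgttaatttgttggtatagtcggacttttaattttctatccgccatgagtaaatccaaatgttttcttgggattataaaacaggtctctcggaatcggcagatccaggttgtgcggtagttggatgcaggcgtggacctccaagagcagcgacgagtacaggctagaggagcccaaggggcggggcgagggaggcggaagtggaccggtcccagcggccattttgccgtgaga
Psma3, chr6:95219499-95219748, plus strand: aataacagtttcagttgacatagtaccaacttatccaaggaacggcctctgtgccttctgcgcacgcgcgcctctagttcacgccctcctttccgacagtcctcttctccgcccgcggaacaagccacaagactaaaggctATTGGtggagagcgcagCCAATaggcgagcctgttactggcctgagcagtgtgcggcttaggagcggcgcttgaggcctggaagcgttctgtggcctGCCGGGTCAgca
Psmd2, chr11:93763389-93763638, minus strand: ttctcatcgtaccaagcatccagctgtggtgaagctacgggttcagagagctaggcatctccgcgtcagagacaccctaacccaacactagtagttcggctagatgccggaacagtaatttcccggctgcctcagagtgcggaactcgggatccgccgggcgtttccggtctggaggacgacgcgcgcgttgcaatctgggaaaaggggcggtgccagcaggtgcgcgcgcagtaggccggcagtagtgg

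Psma6 held the ETS core on both strands, 43 to 37 and 24 to 18 bases before the start. Psma3 held the antioxidant response element core on the opposite strand, 12 to 4 bases before the start, and the CCAAT box at 109 to 105 and 92 to 88 bases. Psmb1 held the CCAAT box on the opposite strand 237 to 233 bases before the start, and in Psmd2 the first 3 motifs were not in the window. Over the 43 windows the ETS core was found in 12, which is 27.9%, against 7.27% of all 33469 promoters. The CCAAT box was found in 20, which is 46.5%, against 34.0%, and in 9 of the 13 core genes with a window. The antioxidant response element core was found in 7, which is 16.3%, against 10.1%. The 7 were Psma3, Psmb2, Psmb5, Psmb6, Psmd1, Psmd9 and Psme4. The TATA box was found in 4, which is 9.3%, against 12.9% of all promoters and 12.1% of those of protein-coding genes. Among the matches to the first 3 motifs 1 pair overlapped, in Psmb2, where the CCAAT box and the antioxidant response element core share a base. A match is a run of letters and not a shown binding site.

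Most of the 48 genes had a single main transcript. Of these genes 22 had 1 transcript and 26 had several, 92 transcripts in all, and for 38 genes at least 90% of the reads lay on 1 transcript. Psmb1 was split over 3 transcripts. The one of 799 bases was at 201 ± 29 TPM in ESW, 242 ± 31 TPM in CW and 248 ± 22 TPM in Control. The one of 691 bases was at 225 ± 6 TPM in ESW, 277 ± 18 TPM in CW and 278 ± 23 TPM in Control (SD, n = 3 each). The one of 1188 bases was at 69.5 ± 1.0 TPM in ESW, 81.3 ± 7.0 TPM in CW and 79.2 ± 14.0 TPM in Control. All 3 had their lowest mean in ESW.

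Psma3 was less even. Its transcript of 962 bases was at 51.2, 100.2 and 101 TPM in ESW, at 145, 127 and 152 TPM in CW and at 127, 132 and 129.7 TPM in Control. Its transcript of 1993 bases was at 53.3 ± 2.7 TPM in ESW, 52.5 ± 2.1 TPM in CW and 54.8 ± 1.0 TPM in Control. The transcript of 905 bases was at 222, 185 and 176 TPM in ESW, at 174, 229.7 and 218 TPM in CW and at 205, 214 and 245 TPM in Control. Another transcript, of 969 bases, held 4.12% of the Psma3 reads. It was at 60.3, 9.35 and 30.2 TPM in ESW, at 13.9, 14.5 and 12.3 TPM in CW and at 0, 29.2 and 12.6 TPM in Control. In ESW replicate 1 the 962-base transcript was the lowest of the 9 libraries and the 969-base transcript the highest. The 905-base transcript lay within the ranges of CW and Control there. The estimate divides reads that fit more than 1 transcript. Of near copies with their own symbols, Psmb6l1, Psmg4l1 and Psmb3l2 had 0 reads, and Psmb3l1 had 1 read in each of 2 Control libraries.

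Among other genes of the ubiquitin and proteasome system some rose and some fell in ESW. Of 25 such genes listed 24 were found under their symbols, and these 24 had tests. Among them were shuttle receptors, ubiquitin genes, ubiquitin-activating enzymes, the segregase Vcp with its cofactors, and Nfe2l1 with its activators. In ESW against Control 6 of the 24 changed, 4 that rose and 2 that fell, against 8.04% of all tested genes, with 4.76% that rose and 3.28% that fell. In ESW against CW 6 of the 24 changed, 5 that rose and 1 that fell, against 8.14% of all tested genes, with 4.15% that rose and 3.99% that fell. The median effective length of the 24 was 2633 bases. Of the 6375 protein-coding genes of at least 2500 bases 389 rose and 117 fell in ESW against Control. In ESW against CW 331 of them rose and 211 fell. In CW against Control 0 of the 24 changed in edgeR's quasi-likelihood test, against 0.177% of all tested genes, and 2 had an unadjusted p below 0.05, against 9.87%.

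Subunits and assembly factors outside the Psm symbols were mixed. Sem1, a small lid subunit, had 55.6, 55.0 and 47.8 CPM in ESW, 56.5, 57.7 and 59.1 CPM in CW and 59.5, 62.6 and 64.5 CPM in Control. It fell in ESW against Control by 0.24 (SE 0.05, adjusted p = 0.0107) and did not pass against CW (-0.13, adjusted p = 0.152). Pomp, the maturation factor of the core particle, had 129, 131 and 127 CPM in ESW, 134, 136 and 139 CPM in CW and 135, 141 and 139.6 CPM in Control. Its ESW libraries were below all others, and it did not pass (-0.10, adjusted p = 0.106 against Control, and -0.08, adjusted p = 0.188 against CW). Adrm1, a ubiquitin receptor of the base, had 112, 101 and 101 CPM in ESW, 91.5, 100.1 and 95.3 CPM in CW and 93.2, 99.5 and 93.9 CPM in Control. Its ESW libraries were above all others, and it too did not pass (0.13, adjusted p = 0.109 against Control, and 0.13, adjusted p = 0.116 against CW).

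Ubb and Rps27a, which encode ubiquitin, differed in direction. Ubb, a polyubiquitin gene, had 1003, 960.5 and 993 CPM in ESW, 916, 892 and 913 CPM in CW and 924, 925 and 884 CPM in Control, and passed against CW (0.12, adjusted p = 0.0405) but not against Control (0.11, adjusted p = 0.052). Rps27a, which encodes ubiquitin fused to a ribosomal protein, had 376, 396 and 358 CPM in ESW, 421, 429.9 and 445 CPM in CW and 446, 460.1 and 467 CPM in Control. It fell by 0.28 against Control (SE 0.04, adjusted p = 0.000465) and by 0.20 against CW (SE 0.04, adjusted p = 0.00693).

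The shuttle receptor genes Ubqln1 and Ubqln2 rose in ESW, and so did the transcription factor gene Nfe2l1. Ubqln2, a receptor that carries ubiquitinated proteins to the proteasome, had 89.2, 89.03 and 89.2 CPM in ESW, 77.9, 69.3 and 72.6 CPM in CW and 82.9, 76.2 and 77.5 CPM in Control. It rose by 0.29 against CW (SE 0.05, adjusted p = 0.00191) and by 0.18 against Control (SE 0.05, adjusted p = 0.0229). Ubqln1, of the same family, had 182, 185 and 191 CPM in ESW, 172, 165 and 173 CPM in CW and 173, 171 and 166 CPM in Control, and rose by 0.13 in both comparisons (adjusted p = 0.0407 against CW and 0.0412 against Control). The shuttle receptor genes Rad23b and Ubqln4 passed in neither comparison. Nfe2l1 had 307, 327 and 326 CPM in ESW, 298, 271 and 284 CPM in CW and 299, 283 and 272 CPM in Control. It rose by 0.17 in both comparisons (SE 0.04, adjusted p = 0.0221 against CW and 0.0226 against Control), with every ESW library above every other library. Ddi2 and Ngly1, the protease and the glycanase that activate its protein, did not pass (0.09, adjusted p = 0.305 and 0.00, adjusted p = 0.975 against Control).

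Uba1, the main ubiquitin-activating enzyme, had 336, 328 and 346 CPM in ESW, 313, 305 and 317 CPM in CW and 302, 305 and 299.9 CPM in Control. It rose by 0.16 against Control (adjusted p = 0.0111) and did not pass against CW (0.11, adjusted p = 0.0623). Nploc4, a cofactor of Vcp, had 85.2, 90.5 and 91.6 CPM in ESW, 81.7, 78.6 and 81.8 CPM in CW and 85.2, 83.3 and 79.5 CPM in Control. It rose by 0.14 against CW (adjusted p = 0.0479) and did not pass against Control (0.11, adjusted p = 0.128). The called genes of this list differed in length too. The mean effective length was 673 bases for Rps27a and 301 bases for Sem1, which fell, and 1101 bases for Ubb, 2828 bases for Ubqln1, 2843 bases for Ubqln2, 3622 bases for Uba1, 3850 bases for Nploc4 and 4999.7 bases for Nfe2l1, which rose. With average transcript length as an offset, 2 of the 6 genes called in ESW against Control kept their call, Nfe2l1 and Rps27a, and 5 of the 6 called in ESW against CW did, all but Ubqln1. With limma on log2(TPM + 1) 1 and 0 did. With the offset Sem1 was at -0.15 (adjusted p = 0.193) and Ubqln1 at 0.07 (adjusted p = 0.4) in ESW against Control. The offset does not take up differences in length between genes, and the part of length in these changes was not tested.

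The calls of these genes were sensitive to single libraries as well. Of the 6 called in ESW against Control, 1 kept its call without ESW replicate 3, which was Rps27a, 3 without ESW replicate 2 or Control replicate 2, and 2 without Control replicate 3. Of the 6 called in ESW against CW, 1 kept its call without ESW replicate 3, which was Ubqln2, 2 without ESW replicate 2, CW replicate 2 or CW replicate 3, and 3 without CW replicate 1. Calls over all tested genes fell under each of these settings as well. Without ESW replicate 3 they went from 1183 to 397 against Control and from 1197 to 314 against CW. Rps27a in ESW against Control passed under every one of the 18 alternatives, and each of the other calls of this list was lost under at least 1.

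**Figure D5:**
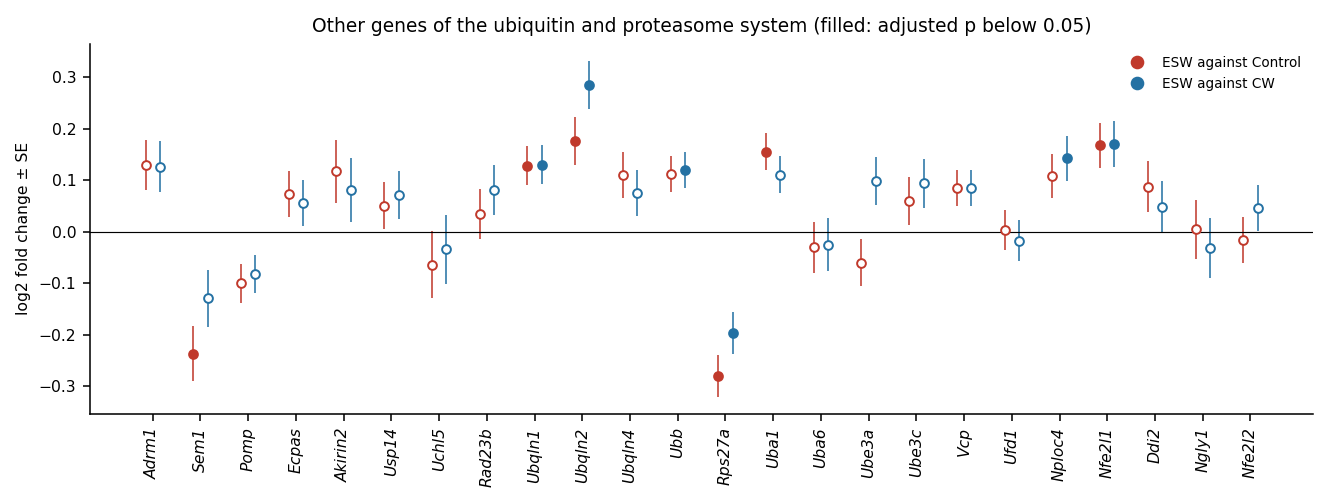
Log2 fold change ± SE of the 24 other genes of the ubiquitin and proteasome system in ESW against Control (red) and ESW against CW (blue), with filled points where the adjusted p was below 0.05. Ubqln1, Ubqln2 and Nfe2l1 are filled above 0 in both comparisons, and Rps27a is filled below 0 in both.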

How the data were processed

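Per the labels' protocols, total RNA was sequenced with the NovaSeq X Plus. Transcripts were quantified with Salmon 1.10.3, and DESeq2 is named without a version, per the submitters' processing notes. Each library's table, as deposited, gives estimated counts, TPM, length and effective length (other values, in bases) for 114122 transcripts, per the file headers. Genome build, annotation release and bias options are not given in the sources used here. Whether the strand of reads was used is not given either.

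All transcripts were matched by accession to RefSeq genes (GRCr8). The authors' estimated counts and TPM values were summed per gene, and the counts rounded. Totals of 26748673 to 48574618 left the standard error of log2 fold changes between 0.035 and 0.104 for the 44 proteasome genes of at least 10 TPM tested in ESW against Control. The main test was edgeR 4.0.16's quasi-likelihood test (R 4.3.3) with TMM scaling and filterByExpr, on all 9 libraries with 1 mean per group, with Benjamini-Hochberg adjustment over 14706 genes. CPM are relative to TMM-scaled totals. The test was checked on simulated data.

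The proteasome genes, their roles, the other ubiquitin genes and the markers were chosen with earlier results of these data known. By the rule for named genes, values were given in every library for each proteasome gene called, the 6 catalytic subunits and the highest and lowest gene of each role. Other ubiquitin genes were named where called, with Nfe2l1, Pomp and Adrm1 always named, and further genes beside them were chosen after their values were seen. Some genes of these lists are not reported here, and counts over the lists leave them out. Alternatives were DESeq2 size factors, no filter, a minimum of 1 CPM in at least 3 libraries, the test of DESeq2 1.42.0, voom of limma 3.58.1, offsets for average transcript length, limma on log2(TPM + 1) for genes with a mean of at least 1 TPM, a replicate block, only the groups compared, and each library left out.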

Additional observations from a re-analysis of the deposited data

How the results depend on the processing

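The count of proteasome genes called was 9 in ESW against Control, 8 in ESW against CW, 0 in CW against Control and 8 over the 3 groups. Offsets for transcript length gave 4 in ESW against Control, 4 in ESW against CW and 4 over the 3 groups, and limma on log2(TPM + 1) gave 3, 0 and 0. That TPM test called 155 of all genes tested in ESW against Control and 1 in ESW against CW, where edgeR's quasi-likelihood test called 1183 and 1197. In ESW against CW no filter gave 14 and a fit of only the groups compared gave 13. With 1 library left out the count ran from 3 to 12 in ESW against Control, from 0 to 13 in ESW against CW and from 2 to 14 over the 3 groups, where it was 2 without ESW replicate 3, 4 without CW replicate 2 or CW replicate 3, 5 without ESW replicate 2 or Control replicate 3, and 14 without Control replicate 1. Calls over all tested genes ran from 397 to 1544 in ESW against Control and from 314 to 1486 in ESW against CW with 1 library left out. The cause of these differences was not tested. In CW against Control the count was 0 under each of the 18 alternatives.

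The labels share replicate numbers between groups and do not say that a number marks a shared culture or day. Deviations of libraries with the same number had correlations from -0.118 to 0.0402 over 9 pairs, and 1 of 9 libraries correlated best with its own number. With the replicate number as a block the counts were 9 in ESW against Control, 6 in ESW against CW, 0 in CW against Control and 5 over the 3 groups.

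The 17 called values of proteasome genes were recomputed under the alternatives, which gave 305 values. The direction was the same in all 305, the call was kept in 226 and lost in 79. Median log2 fold changes of the core particle ran from -0.18 to -0.12 in ESW against Control and from -0.18 to -0.11 in ESW against CW. Depth limits Psmb8, Psmb9 and Psma8, which are under 10 TPM, and Psmb11 could not be compared.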
